A study of Mus musculus with 4 samples.

Results

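Mouse bone marrow-derived dendritic cells cultured with lactic acid (LA) alone were compared with the same kind of cells left in medium. The comparison uses 2 of the 4 arrays of the series, the LA array and the medium array, chosen by their labels and not by any measured value. The cells, wild type (WT) per the titles of all groups, came from femur marrow of male C57BL/6J mice. They were grown with GM-CSF (10 ng/ml) in MEM to which 10% FBS had been added, and used on day 6. The LA group received L-(+)-LA at 20 mM, and the medium group received no stimulus. The remaining arrays, cells given LPS at 100 ng/ml and cells given both agents, serve only as a second pair in which LA was added. Per the labels, stimulation lasted 4 h. No time is given for the medium group, no pH for any group and no age or pooling of the mice, so lactate and acid cannot be told apart and neither can LA and a change of culture conditions that came with it. Each group is 1 array, so no test between conditions was possible and every difference below compares 2 arrays.

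Lactate is the end product of glycolysis under low oxygen or rapid glucose use, and it crosses the cell membrane together with a proton through monocarboxylate transporters. Cells sense it through a G protein-coupled lactate receptor and sense acid through proton-sensing receptors and channels. The hypoxia-inducible factors (HIF) drive glycolytic enzymes, glucose transporters and a set of stress genes, and prolyl hydroxylases mark HIF for degradation when oxygen is present. Dendritic cells raise glycolysis, costimulatory molecules, cytokines and interferon-stimulated genes when they mature. The series asked how lactate bears on inflammation in these cells, and the LA and medium arrays are the pair without LPS.

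Each level below is the log2 processed signal minus the log2 of that array's 75th percentile, so that 0 is that percentile and 1 unit is a doubling. The percentile itself was 178.7 intensity units for medium and 158.1 for LA. On the medium array 61.52% of the non-control spots were well above background, and on the LA array 64.09%. Of 23462 genes with a probe, 16351 were well above background on at least 1 of the 2 arrays and 14561 on both; the latter are called measured. Among the 285 probes printed 10 times and above background on both arrays, the SD between spots of the LA minus medium difference had a median of 0.072 and a 95th percentile of 0.132. That spread covers spot noise within the 2 arrays only and says nothing of the spread between cultures.

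Over all measured genes the median difference, LA minus medium, was 0.02, with quartiles of -0.28 and 0.31, and 6947 of 14561 lay below 0. At least 2-fold higher with LA were 454 of 14561 measured genes (3.12%), and at least 2-fold lower were 484 (3.32%). The share of higher genes among those at least 2-fold apart was thus 48.4%, but it was 30.8% after another background correction (normexp), 39.8% with scaling to the median, 56.7% without the filter on dim probes and 65.6% in the authors' deposited values, so no excess of either direction is read from it. The balance varied with brightness: with the measured genes in 5 equal bins of brightness, 27 were higher and 79 lower in the brightest bin, against 161 and 124 in the dimmest. The groups of genes described below were read against these shares. Their lists were put together with earlier results of these data known. An excess over these shares may thus come in part from that choice and is no test.

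**Figure D1:**
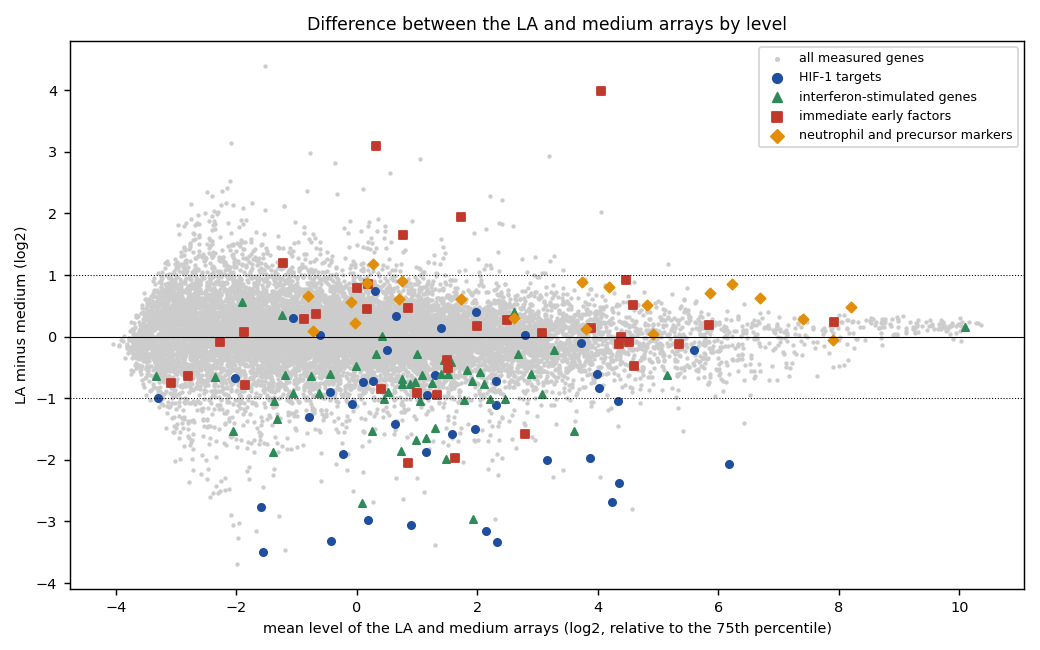
LA minus medium (log2, vertical axis) against the mean level of both arrays (log2, horizontal axis) for the 14561 measured genes in grey, with 4 gene lists in colour and dotted lines at 1 and -1. The HIF-1 targets lie mostly below 0, the interferon-stimulated genes in a band below 0, the neutrophil and precursor markers above 0, and Egr1 and Fos among the highest genes.

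Genes known as targets of HIF-1 were lower with LA. Of 46 targets outside glycolysis, 41 were measured; 21 of these were at least 2-fold lower, against 3.32% of all measured genes, and 0 were at least 2-fold higher. Their median difference was -1.05, and 34 of 41 lay below 0. A further 2 targets, Adm, which encodes the peptide adrenomedullin, and P4ha2, a collagen prolyl hydroxylase subunit, were above background on the medium array only and were lower by their bound. The count was between 17 and 23 under the alternative settings.

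Egln3 encodes an oxygen-sensing prolyl hydroxylase that HIF itself induces. Its level was 3.99 in medium and 0.66 with LA, a difference of -3.33, or 10.1-fold lower. Egln3 and Egln1 are on the target list as well as the list of sensors. Egln1, the main HIF prolyl hydroxylase, was at 0.72 in medium and -1.18 with LA, a difference of -1.90. Both sensors that HIF induces were thus low on the LA array, whereas Egln2 (0.40), Hif1an (0.60) and Vhl (-0.54) differed by less than 2-fold. Of the HIF subunits, Hif1a was at 1.53 in medium and 0.84 with LA (-0.69), and Epas1, which encodes HIF-2 alpha, was at -2.33 and -1.15 (1.18). Arnt (-0.25), Cited2 (0.05) and Ep300 (0.10) were near the median of all genes, and Hif3a and Arnt2 were not well above background on either array.

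Bnip3, a mitophagy receptor, was at 5.58 in medium and 2.90 with LA, a difference of -2.69, whereas its relative Bnip3l differed by -0.61. Ddit4, an inhibitor of mTORC1, was at 3.73 and 0.56 (-3.16). Hilpda, which blocks lipolysis at lipid droplets, was at 1.68 and -1.30 (-2.98). Ndrg1 (-2.01), the mitochondrial protein genes Fam162a (-1.98), Higd1a (-1.5) and Mgarp (-3.49), and Ankrd37 (-3.32) were lower too. With normexp the difference of Mgarp was -1.67 and that of Ankrd37 -2.24. Among enzymes, Ak4, a mitochondrial adenylate kinase, was at 2.43 and -0.64 (-3.06), and Hmox1, heme oxygenase, was at 7.22 and 5.15 (-2.07). A second probe of Ak4 differed by -1.17, the same direction with a smaller size.

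Of the secreted and matrix genes, Ero1a, an oxidase of the endoplasmic reticulum, was at 5.54 and 3.17 (-2.37), Vegfa at 4.85 and 3.80 (-1.05), and Lox, lysyl oxidase, at -0.22 and -2.98 (-2.77). The level of Lox in medium stood above the other 3 arrays, where it was -3.57 with LPS, and its low value with LA was close to background. The collagen hydroxylase subunit P4ha1 (-1.57), the clock repressor Bhlhe40 (-1.42), the histone demethylase Kdm3a (-1.31), the glycogen genes Gys1 (-1.10) and Gbe1 (-1.10) and Selenbp1 (-1.88) completed the 21. Stc2 lay just short of 2-fold. Targets that were not lower included Pfkfb4 (0.34), Tfrc (0.40), Plin2 (0.14), Cox4i2 (0.03), Pdgfb (0.03), Kdm4c (0.30) and Angptl4 (0.74), the last the highest of the list. The other measured targets lay between -0.94 for Mxi1 and -0.11 for Trf, and Edn1, Tmem45a and Car12 were not well above background on either array.

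The 250 bases before the start of 3 of these genes are printed to show the core letters that HIF is known to bind, ACGTG or GCGTG read on either strand, in capitals. The sequences are those of RefSeq for GRCm38.p6 on the strand of the gene. Bnip3 (chr7:138909507-138909756, minus strand) holds 5 matches, a pair of which share the palindromic CACGTG. Fam162a (chr16:36071562-36071811, minus strand) holds 6, and Egln3 (chr12:54203875-54204124, minus strand) holds 1.
Bnip3: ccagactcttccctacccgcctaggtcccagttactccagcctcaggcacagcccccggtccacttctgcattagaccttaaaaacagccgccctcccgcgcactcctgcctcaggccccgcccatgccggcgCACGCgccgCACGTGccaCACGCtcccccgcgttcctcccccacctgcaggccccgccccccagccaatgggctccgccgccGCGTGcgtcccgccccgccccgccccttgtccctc
Fam162a: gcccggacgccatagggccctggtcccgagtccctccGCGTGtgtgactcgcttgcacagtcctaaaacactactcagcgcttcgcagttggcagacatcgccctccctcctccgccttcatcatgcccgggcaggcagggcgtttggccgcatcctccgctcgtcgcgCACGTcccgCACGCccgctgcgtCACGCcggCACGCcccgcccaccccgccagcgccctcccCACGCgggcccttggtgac
Egln3: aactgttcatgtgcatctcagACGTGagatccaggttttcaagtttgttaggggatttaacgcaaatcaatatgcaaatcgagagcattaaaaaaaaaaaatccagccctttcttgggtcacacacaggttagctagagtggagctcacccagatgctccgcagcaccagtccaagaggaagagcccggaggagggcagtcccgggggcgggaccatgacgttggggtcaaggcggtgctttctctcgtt

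Promoter windows were at hand for 17 of the 21 lower HIF-1 targets, and 15 of them (88.2%) held at least 1 match. Of the measured targets that were less than 2-fold lower, 12 of 12 windows held one. Among all measured genes the share was 54.8%, and among all genes at least 2-fold lower with LA it was 54.7%. The letters thus marked the target list as a whole and not its lower members, and a match is no measure of binding.

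Of 24 glycolytic genes 23 were measured, 7 were at least 2-fold lower with LA, 0 were higher and the median was -0.63. The lower genes were 1 of 3 glucose transporters, 3 of 10 genes of the hexose steps, of which 3 others lay above 0, and 3 of 10 of the triose steps. Slc2a1, the main glucose transporter, was at 4.39 in medium and 2.12 with LA (-2.27), and the further transporters Slc2a3 (-0.90) and Slc2a6 (-0.06) differed less. Hk2, an inducible hexokinase, was at 2.77 and 0.74 (-2.03), whereas Hk1 differed by -0.46 and Hk3, the hexokinase of myeloid cells, by 0.28. Of the phosphofructokinases, Pfkp was at 3.24 and 1.24 (-2.0) and Pfkl at 4.23 and 3.03 (-1.20), while Pfkm differed by 0.37. Both enzymes thus had a form at least 2-fold lower and a form above 0.

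The triose phosphate steps held Tpi1, at 5.17 in medium and 2.89 with LA (-2.28), Pgk1, at 6.18 and 4.64 (-1.53), and Pgam1. The Pgam1 probe was printed 10 times on each array and gave 7.13 ± 0.05 (SD, 10 spots) in medium and 5.73 ± 0.04 with LA, a difference of -1.40 ± 0.03. Aldoc, printed equally often, gave a difference of -0.61 ± 0.05. These differences far exceed the spread between spots, which says nothing of the spread between cultures. Genes outside glycolysis with such probes exceeded it too, such as Rps9 (-0.645 ± 0.07) downwards and Rps19 (0.134 ± 0.049) upwards. Pkm (-0.71), Gapdh (-0.63), Eno1 (-0.54) and Aldoa (-0.49) were lower by less than 2-fold, and Eno2 (-0.14) and Eno3 (0.05) were near 0. Gpi1 (-0.87), Pfkfb3 (-0.83), Pfkfb2 (-0.51) and Pfkfb4 (0.34) made up the rest of the measured genes, and Pfkfb1 was above background with LA only.

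**Figure D2:**
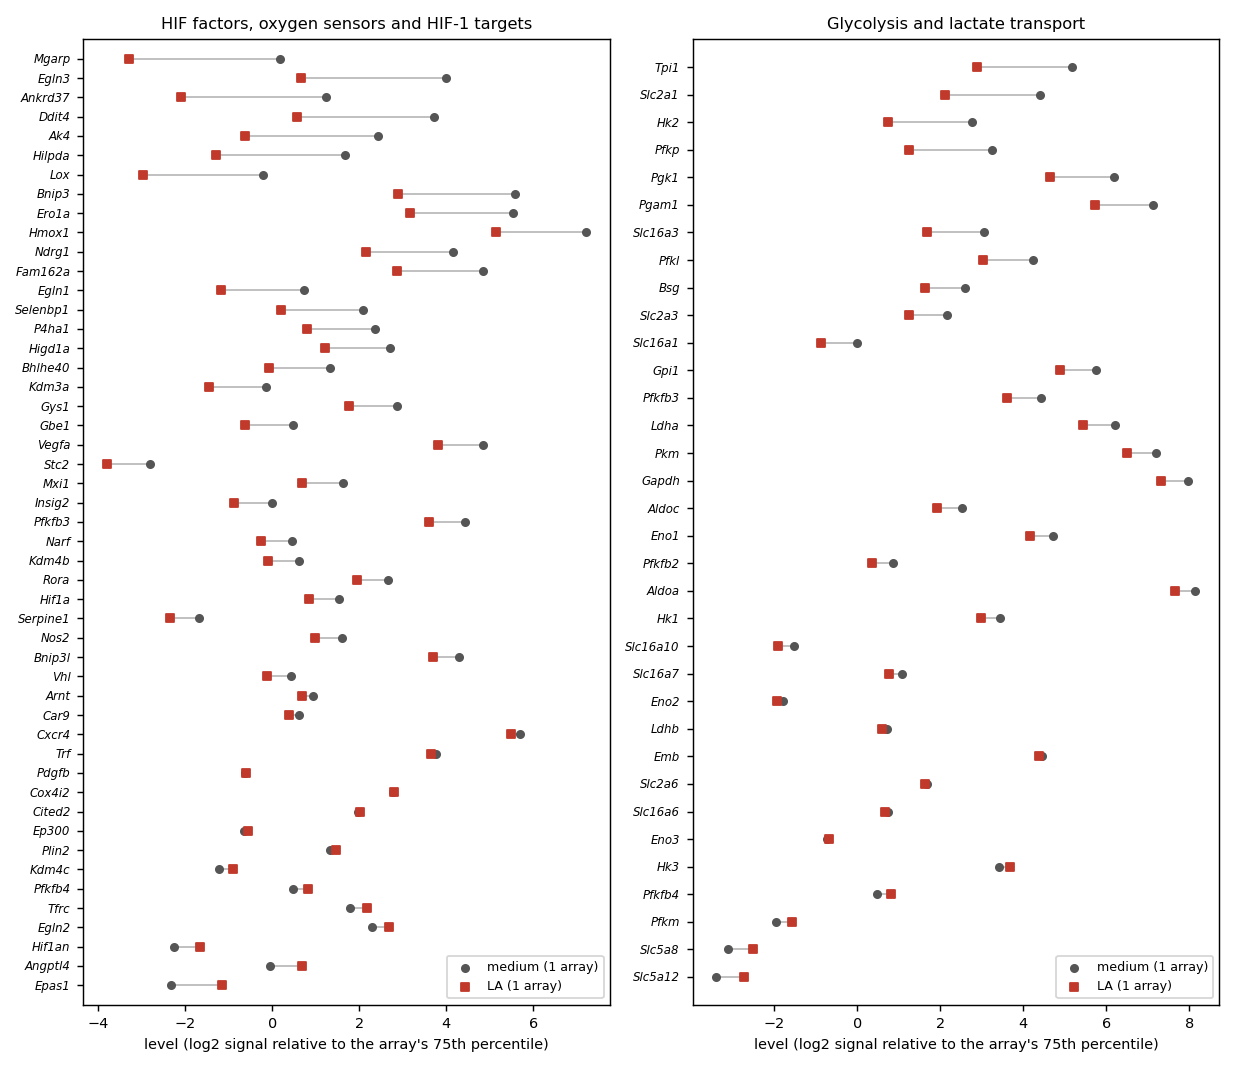
Level (log2 signal minus log2 of the array's 75th percentile, horizontal axis) of each measured member of the HIF lists (left) and of the glycolysis and lactate transport lists (right) in medium (grey circle) and with LA (red square), 1 array each, sorted by the difference with the lowest at the top. The longest lines belong to Mgarp, Egln3 and Ankrd37 on the left and to Tpi1, Slc2a1 and Hk2 on the right, all lower with LA.

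Of the genes that convert or carry lactate, 1 was at least 2-fold lower and 0 were higher. Ldha, the lactate dehydrogenase subunit that favours lactate formation, was at 6.20 in medium and 5.44 with LA (-0.76), and Ldhb differed by -0.13. Slc16a3, the lactate exporter MCT4 and a HIF target, was at 3.05 and 1.67 (-1.38), the 1 lower gene of the 11 measured. Slc16a1, which encodes MCT1, was at 0.00 and -0.88, and its partner Bsg (basigin) at 2.60 and 1.63 (-0.97). Slc16a10 (-0.37), Slc16a7 (-0.33), Emb (-0.06), Slc16a6 (-0.05), Slc5a8 (0.60) and Slc5a12 (0.65) differed by less, and Ldhd was not above background.

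Hcar1, the lactate receptor, was not well above background on either array, nor was the proton-sensing receptor Gpr4. Of other receptors of this kind, Gpr132 was at 1.92 in medium and 0.96 with LA (-0.96), and Gpr65 was at -1.60 and -1.91 (-0.30). The differences of Gpr132 and Gpr65 were less than 2-fold. Of the 3 measured proton-sensing receptors 1, not named here, was at least 2-fold lower. Among the acid-sensing channels, Pacc1, the proton-activated chloride channel, differed by -0.08, Asic3 by -0.07, Otop1 by 0.35 and Trpv1 by 0.52, and Asic1 was not above background.

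Of 26 measured acid-base and sodium pump genes, 1 was at least 2-fold higher (3.85%, near the 3.12% of all measured genes) and 0 were lower. That gene, Atp1b1, a beta subunit of the sodium pump, was at -3.65 in medium and -0.51 with LA (3.14). Its level in medium was close to the lowest that passed the background test there (-3.99), and with normexp the difference was 1.16. Atp1b1 was at -2.61 with LPS and -2.62 with LPS and LA, so the LA array alone was high and the second pair showed no difference. The pump subunit Atp1b3 (-0.61) and the pump regulators Fxyd2 (-0.59) and Fxyd5 (-0.18) were lower by less than 2-fold. The 7 genes of the sodium-proton exchanger group ranged from -0.29 for Slc9a7 to 0.86 for Slc9a5. The bicarbonate transporters ranged from -0.57 for Slc4a8 to 0.63 for Slc26a11, and the carbonic anhydrases from -0.95 for Car13 to 0.81 for Car1, with Car2 at -0.70.

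A small set of immediate early genes was higher with LA, led by Egr1 and Fos. Egr1, a zinc finger factor induced by growth factor and MAP kinase signals, was at 2.06 in medium and 6.04 with LA, a difference of 3.98, or 15.8-fold. Fos, an AP-1 subunit, was at -1.24 and 1.86 (3.1, or 8.55-fold). Myc (0.76 and 2.70, a difference of 1.94), Ier2 (1.65) and Csrnp1 (1.19) were also at least 2-fold higher, giving 5 of 37 measured members against 3.12% of all genes. The count was between 4 and 7 under the alternative settings. In the second pair, whose arrays are separate, Egr1 was at 1.85 with LPS and 6.06 with LPS and LA, and Fos at -1.96 and 1.82, nearly the same levels as without LPS.

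The early response was not uniform. Klf10 was at 1.87 in medium and -0.19 with LA (-2.06), Atf3 at 2.61 and 0.63 (-1.98), and Klf2 at 3.58 and 2.0 (-1.58), so 3 members were at least 2-fold lower. Fosl1 was above background in medium only and was lower by its bound. The other AP-1 genes ranged from -0.91 for Jun and -0.79 for Batf3 through Jund (-0.12), Fosl2 (-0.09), Fosb (0.18) and Junb (0.24) to 0.37 for Batf. Within the EGR family Egr2 (0.91) and Egr3 (0.86) lay just under the threshold, Egr4 at 0.08 and the corepressor Nab2 at -0.94. The remaining members ranged from -0.85 for Nr4a2 to 0.79 for Arc, with Nr4a1 at 0.28, Ier3 at 0.06 and Srf at 0.28. The median of the list was 0.08, close to that of all genes.

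Among feedback genes of MAP kinase signalling, Dusp6, the phosphatase that acts on ERK, was at 1.06 in medium and 3.34 with LA (2.28). Dusp1, a stress-induced phosphatase, was at 0.78 and 1.97 (1.18). Dusp16, at -0.40 and -1.61 (-1.20), and Errfi1, an inhibitor of the EGF receptor (-1.77), were lower, so of 13 measured members 2 were higher and 2 lower. Spry1 was above background in medium only and was lower by its bound. Of 19 measured cAMP-responsive genes 3 were lower, Crem (-1.73), Pde3b (-1.13) and Vegfa, which is on 2 lists, and 1 was higher, Ppargc1b (1.12). Nr4a1, Nr4a2, Rgs1 (-0.14), Rgs2 (0.49) and Sik1 (0.36), genes commonly induced by cAMP, were not at least 2-fold apart.

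**Figure D3:**
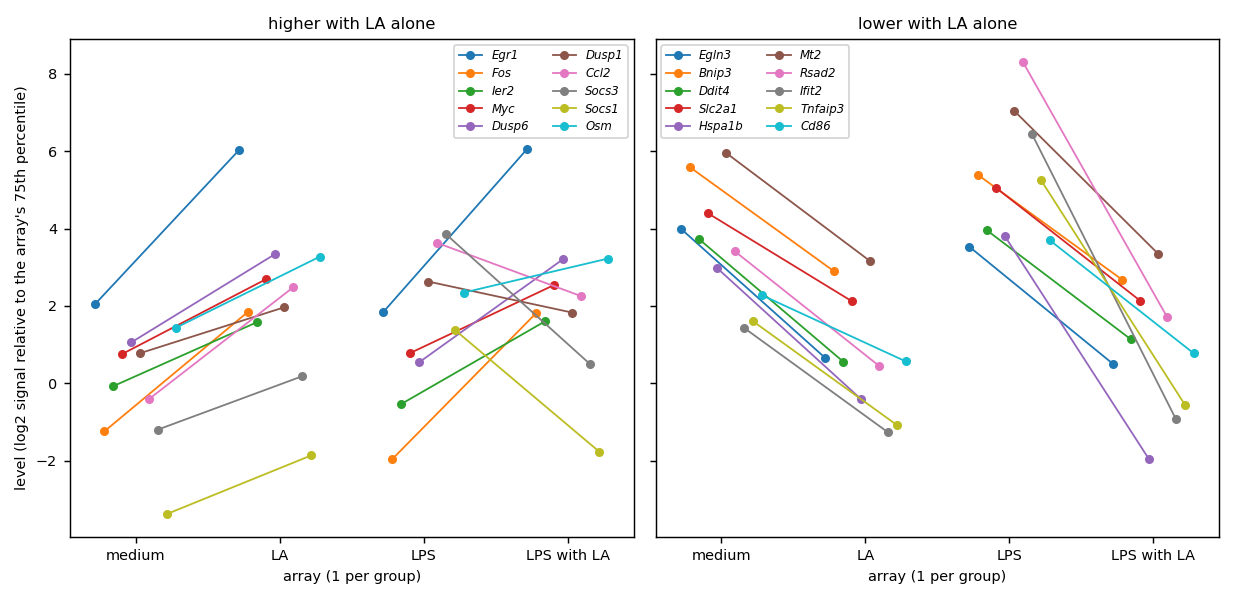
Level (log2 signal minus log2 of the array's 75th percentile, vertical axis) of 20 named genes on the 4 arrays, 1 per group, with lines joining medium to LA and LPS to LPS with LA. Egr1, Fos and Dusp6 are higher with LA in both pairs, Ccl2, Socs3 and Socs1 are higher with LA alone and lower with LA beside LPS, and the 10 genes on the right are lower with LA in both pairs.

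Beside these early genes, the largest differences upwards were a mixed set. The 25 named genes had to keep the direction over their measured probes and a 2-fold difference under 3 other processing settings, which 62 of 405 higher genes with an ordinary symbol met. Ccl2, a chemokine for monocytes, was at -0.40 in medium and 2.48 with LA (2.88). Osm, the cytokine oncostatin M, was at 1.44 and 3.28 (1.84). The receptors Ffar2 for short-chain fatty acids, Lpar5 for lysophosphatidic acid and Adora3 for adenosine were higher by 1.87, 1.87 and 1.76. Tmod1, an actin filament capping protein, was at -3.72 and 0.68 (4.40), but its difference was 2.16 with normexp and 2.13 as the mean of its probes, whereas that of Egr1 was 3.81 with normexp. Of the 25 genes, 9 were at least 2-fold higher on the LA array than on every other array, also than with LPS and LA: Tmod1, Atp1b1, Zfp715, Exd2, Zbtb40, Endod1, Dppa5a, Rexo1 and Ccdc150. Other measured probes of Endod1 (0.13), Rexo1 (0.10 and 0.12) and Exd2 (0.72) differed by less than 2-fold. Of the 20 among the 25 that were measured in the second pair, 14 were at least 2-fold higher there too and 2, Ccl2 and Endod1, at least 2-fold lower. Over all genes measured in that pair 11.5% were at least 2-fold higher and 12.5% lower.

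Some small noncoding RNAs were among the higher genes, and this group was put together after its values were seen. Rnu3b1, a U3 small nucleolar RNA, was at 1.72 in medium and 4.64 with LA (2.92). Rn7sk, the 7SK RNA that holds the elongation factor P-TEFb, was at 1.3 and 3.52 (2.22), and Rpph1, the RNA of RNase P, at 3.03 and 5.06 (2.03). Vaultrc5, a vault RNA, was higher by 1.64. All 4 were at least 2-fold higher with LA in the second pair as well, by 2.14, 1.96, 3.35 and 1.56. By contrast the U1 RNA genes Rnu1b6, Rnu1a1 and Rnu1b1 were lower, by -1.52, -1.43 and -1.43, and Rn7s1 (0.06), Rmrp (-0.11), Terc (0.11) and Rn28s1 (0.27) were near the median. The U1 genes were lower by less than 2-fold in the second pair, with -0.43 for Rnu1b6, -0.23 for Rnu1a1 and -0.40 for Rnu1b1. Rn7s1 was higher there by 1.05, while Rmrp (0.515) and Terc (0.097) stayed within 2-fold. Each of the small RNA genes named here has 1 probe, and how well the labelling captured RNAs of this kind was not tested. Whether the probes of the U1 genes share signal was not tested either.

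Of the 25 genes with the largest differences downwards (141 of 449 lower genes with an ordinary symbol met the conditions), 9 are on the HIF lists given above: Mgarp, Egln3, Ankrd37, Ddit4, Ak4, Hilpda, Lox, Bnip3 and Ero1a. Sdc4, a heparan sulfate proteoglycan, was at 3.77 in medium and 0.81 with LA (-2.96). Maged1 (-2.64), Prr15 (-2.52), the glycosyltransferase gene B3gnt5 (-2.51) and Klrk1 (-2.44), which encodes the activating receptor NKG2D, were lower as well. Tas2r134, a bitter taste receptor, was at -0.15 and -3.84 (-3.69), and Cox10 (-3.27), Slc35f2 (-3.16), Epm2a (-3.03) and Fbxl4 (-2.92) were lower too. With normexp these 5 differences shrank to between -1.52 for Fbxl4 and -1.04 for Epm2a. Others of the 25 shrank too, among them Mgarp (-1.67), Tnip3 (-1.22), Klrk1 (-1.13) and Lox (-1.11), whereas Egln3 (-3.03) and Hspa1b (-2.95) stayed large. With LA, Mgarp (-3.31) and Tnip3 (-3.59) were close to the lowest level that passed the background test (-4.16). Tas2r134, Cox10, Slc35f2, Epm2a and Fbxl4, with Ankrd37, Lox and Maged1, were at least 2-fold higher in medium than on each of the other 3 arrays, including LPS alone. Of the 21 genes measured in the second pair, 19 were at least 2-fold lower there and 0 at least 2-fold higher. The shares over all genes of that pair were 12.5% and 11.5%.

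Heat shock genes of the HSP70 group were lower with LA. Hspa1b, an inducible HSP70, was at 2.98 in medium and -0.41 with LA (-3.39), and its neighbour Hspa1a at 4.50 and 2.33 (-2.16). The near-identical sequence of these genes means that their probes may share signal. The cochaperones Dnajb4 (-2.30), Hsph1 (-1.3) and Dnaja1 (-1.0) were lower, so 5 of 11 measured members of the group were at least 2-fold lower and all 11 lay below 0. Of 12 measured HSP90, chaperonin and small heat shock genes 0 were at least 2-fold apart, with Hsp90aa1 the lowest (-0.94) and the regulator Hsf1 the highest (0.39). Of 22 unfolded protein response genes 2 were lower, Hspa5 (BiP, -1.16) and Creld2 (-1.04), with a median of -0.39. The count was 0 with quantile normalization and 1 under 4 other settings. The sensors Atf6 (-0.43), Ern1 (-0.40) and Eif2ak3 (-0.29) differed by less than 2-fold.

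Of the integrated stress response list 2 of 28 measured genes were lower, Ddit4 and Trib3 (-1.36), while Atf4 (-0.22), Ddit3 (-0.51), Asns (0.15) and Ppp1r15a (0.15) were not at least 2-fold apart. Of 25 measured NRF2 antioxidant genes 4 were lower: Hmox1, Gsta3 (-1.72), Srxn1, which repairs peroxiredoxins (-1.66), and Txnrd1, thioredoxin reductase (-1.29). Nqo1 (-0.43), Gclm (-0.22) and Gsr (-0.18), further targets of NRF2, were within 2-fold. Mt2, a metallothionein, was at 5.96 in medium and 3.16 with LA (-2.79), and its neighbour Mt1 at 5.27 and 4.41 (-0.86). The zinc exporter Slc30a1, a target of the same metal sensor, was lower by -1.32 and the importer Slc39a10 by -1.72, while Slc30a5 was higher by 1.38. Of 16 measured genes of this list 3 were thus lower, and with normexp the lower count was 1. Of 15 measured iron genes 2 were lower, Hmox1 and the importer Slc11a2 (-1.44), and the ferritin genes Fth1 (-0.24) and Ftl1 (-0.13) were near the median.

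Interferon-stimulated genes lay mostly below 0 with LA alone. Of 53 measured genes 18 were at least 2-fold lower, 0 were higher, 48 lay below 0 and the median was -0.74. The count was between 9, with normexp, and 19 under the alternative settings, and it was 12 in the authors' deposited values. Rsad2, which encodes the antiviral protein viperin, was at 3.41 in medium and 0.46 with LA (-2.95). Ifit2 was at 1.44 and -1.26 (-2.70), and the other genes of its family, Ifit3b (-1.87), Ifit3 (-1.85) and Ifit1 (-1.34), were lower together. Isg15, a ubiquitin-like modifier, was at 1.98 and 0.33 (-1.65), and Isg20 (-1.54) and Oasl1 (-1.53) were lower as well. A second Rsad2 probe differed by -1.31.

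Of the interferon factors and sensors, Irf7 was at 2.04 in medium and 0.56 with LA (-1.48), and Stat2 at 2.97 and 1.95 (-1.02). Irf9 (-0.28) and Irf1 (-0.28) differed by less than 2-fold. The DNA-binding proteins Ifi205 (-1.99), Ifi209 (-1.68) and Ifi204 (-1.53) were lower, and these genes belong to a cluster of close relatives whose probes may share signal. Of the guanylate-binding proteins and related GTPases 1 of 9 was lower, Gbp3 (-1.05), while Gbp5 (0.34), Gbp7 (0.41) and Gbp9 (0.56) were above 0. Ifnb1 itself was not well above background on either array.

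The 250 bases before the start of Rsad2 (RefSeq, GRCm38.p6, chr12:26456453-26456702, minus strand) are printed because the gene had the largest difference of this list. The capitals mark 1 match to GAAA, 2 bases of any kind and a further GAAA, letters that interferon-activated factors are known to bind, searched on both strands.
Rsad2: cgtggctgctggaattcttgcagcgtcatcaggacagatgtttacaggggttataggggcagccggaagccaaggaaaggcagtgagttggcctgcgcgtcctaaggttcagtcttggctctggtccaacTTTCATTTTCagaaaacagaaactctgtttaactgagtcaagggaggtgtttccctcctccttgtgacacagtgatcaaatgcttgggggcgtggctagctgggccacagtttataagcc

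Windows were at hand for 16 of the 18 lower interferon-stimulated genes and 9 (56.2%) held these letters. The share was 46.2% (12 of 26) among the measured members that were less than 2-fold lower, 3.4% among all measured genes, 7.1% among all genes lower with LA and 4.7% among all genes higher with LA.

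Cytokine genes differed in both directions. Tnf was at 2.15 in medium and 0.86 with LA (-1.29), Il12b, the shared subunit of interleukin 12 and 23, at 0.44 and -0.57 (-1.01), and Il6 at -1.63 and -2.68 (-1.06). In the other direction, Osm, Tnfsf14 (1.45) and Ltb (1.38), the last 2 of the TNF family, were higher, which gives 3 lower and 3 higher of 17 measured genes. The lower count was 1 with normexp, with the percentile taken over probes above background on both arrays and in the authors' deposited values. Il1b was at 2.02 and 2.26 (0.24) and Il1rn, the interleukin 1 receptor antagonist, at 3.31 and 2.79 (-0.52). Lta and Tnfsf15 were lower and Il33 higher by their bounds. The cytokines of an inflammatory response thus did not move together in the absence of LPS.

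Of 10 measured CC chemokines 1 was at least 2-fold higher and 0 were lower, and of 6 CXC chemokines 3 were lower. Ccl2 was the higher one, and its neighbour Ccl7 was above background with LA only and higher by its bound, while Ccl3 differed by 0.85 and Ccl4 by 0.09. Of the CXC chemokines, Cxcl10, a ligand of Cxcr3, was at -1.34 in medium and -3.65 with LA (-2.31), and Pf4 (-1.67) and Ppbp (-1.54), chemokines of platelets, were lower, as was the platelet gene Gp1ba (-1.25). Cxcl3 was lower by its bound, and Cxcl2 (-0.46) and Cxcl16 (-0.95) were within 2-fold. Of 34 measured chemokine and cytokine receptors 3 were lower, the decoy receptor Il1r2 (-2.25), Cx3cr1 (-1.58) and the gp130 gene Il6st (-1.24), and 2 were higher, Il1r1 (1.43) and Cxcr2 (1.18). The GM-CSF receptor genes Csf2ra (0.14) and Csf2rb (0.22) were near the median.

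Of 13 measured genes of the A20, ABIN and TRAF group, 4 were lower. Tnfaip3, the deubiquitinase A20, was at 1.61 in medium and -1.07 with LA (-2.68), and Tnip3, one of its binding partners, at -0.52 and -3.59 (-3.06). With normexp the difference of Tnfaip3 was -2.16 and that of Tnip3 -1.22. Gadd45b (-1.26) and Traf1 (-1.07) were also lower. These were the 4 lower genes among all 28 of the NF-kB list, and 0 were higher. The genes of NF-kB subunits and inhibitors were within 2-fold, from Rel (-0.70) and Nfkbia (-0.63) to Rela (0.20) and Nfkbid (0.77). The SOCS genes, inhibitors of cytokine signalling, went the other way: Socs1 was at -3.37 in medium and -1.86 with LA (1.51), Cish at 0.09 and 1.49 (1.40), and Socs3 at -1.19 and 0.18 (1.37). These 3 of 8 were at least 2-fold higher, and only 1 of them after normexp. Of the mRNA decay genes Zc3h12c was lower (-1.61), but its other probe differed by 0.64, and Zfp36, the tristetraprolin gene, differed by -0.12.

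Some genes of dendritic cell maturation were lower with LA. Cd86, a costimulatory ligand, was at 2.28 in medium and 0.57 with LA (-1.71), Cd83 at 1.40 and -0.19 (-1.59), and Cd40 at -2.25 and -3.57 (-1.32). Tnfrsf9 (-1.82), Slamf1 (-1.64) and Slamf7 (-1.07) were lower too, making 6 of 16 costimulation and maturation genes, and 4 of the 16 lay above 0, among them Cd80 (0.22) and Fscn1 (0.92). Of the MHC class II genes H2-Aa was at 5.91 and 4.75 (-1.16) and H2-Ob at 0.88 and -0.12, while Cd74 differed by 0.13 and the regulator Ciita by 0.90. The MHC class I genes H2-K1 (-0.68), H2-D1 (-0.48) and B2m (-0.43) were lower by less than 2-fold. Over the whole list 8 of 38 genes were at least 2-fold lower and 0 higher. The lower count was 5 after normexp, and in the authors' deposited values 6 were lower and 2 higher.

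The Toll-like receptor genes hardly differed. Tlr4, the LPS receptor, was at 1.48 in medium and 1.45 with LA, its partner Ly96 differed by 0.29 and the coreceptor Cd14 by -0.55, and Tlr2 by -0.06. Ticam2, an adaptor of Tlr4, was lower (-1.37) and Lbp higher (1.43). Of the lectin and scavenger receptors Clec4e, or Mincle (-1.90), and Cd36 (-1.78) were lower, and of 11 inflammasome genes 0 were at least 2-fold apart. Acod1, the enzyme that makes itaconate, was lower by -1.68 and Odc1, ornithine decarboxylase, by -1.44, while Nos2 (-0.63) and Ptgs2 (-0.06) were within 2-fold.

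Receptors for nucleotides, lipids and metabolites were more often higher than lower: 6 of 36 measured genes were at least 2-fold higher and 1 lower, against 3.12% and 3.32% of all genes. Besides Ffar2, Lpar5 and Adora3 these were P2ry13 at -0.99 in medium and 0.70 with LA (1.69), C5ar2 (1.43), a complement receptor, and P2ry6 (1.03). The 1 lower gene was Cysltr2 (-1.10). P2ry12 was above background with LA and on no other array, LPS with LA included, and was at least 12.2-fold higher than in medium. P2ry10 was above background in medium and not with LA. In the second pair Ffar2 (1.73), Lpar5 (3.75), Adora3 (1.58), C5ar2 (3.15) and P2ry6 (2.14) were higher again, whereas P2ry13 was not (-0.36).

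Genes of core metabolism and growth differed less. Of 29 measured respiratory chain genes 1, Cox10, was lower and 27 lay below 0, with a median of -0.31. Genes often used as references were much alike, with 23 of 29 below 0 and a median of -0.25. Of 27 genes of pyruvate entry and the TCA cycle Dld (-1.08) and Acod1 were lower. Of 35 sterol and fatty acid synthesis genes Fasn was higher (1.26) and 0 were lower. In the list of LXR and PPAR lipid genes Lpl (-2.14), Cd36, Acadl (-1.19) and Abca1 (-1.06) were lower and Abcg1 higher (1.06). The amino acid transporter Slc38a2 was higher (1.23) and Slc7a2, which carries arginine, lower (-1.63). Of 38 cell cycle genes Mcm2 (1.96) and E2f2 (1.27) were higher, with Mki67 at 0.01, and of 39 lysosome and V-ATPase genes only Mcoln1 (1.07) was at least 2-fold apart.

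Among growth arrest and survival genes Cdkn1a (-1.22), the p53 target that halts the cell cycle, Phlda3 (-1.08) and Pmaip1 (-1.67) were lower, with Gadd45b, and Bid was higher (1.22). Of the clock and Kruppel-like genes Nfil3 (-1.59), Bhlhe40, Bhlhe41 (-1.05), Klf10 and Klf2 were lower and Clock higher (1.72), although its other probes differed by -0.81 and -0.02. Of 29 genes often used as references 2 were lower, Pgk1, which is also glycolytic, and Snrpd3 (-1.23). Their median was -0.25, while Actb (0.01) and Ppia (-0.18) were nearer 0.

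**Figure D4:**
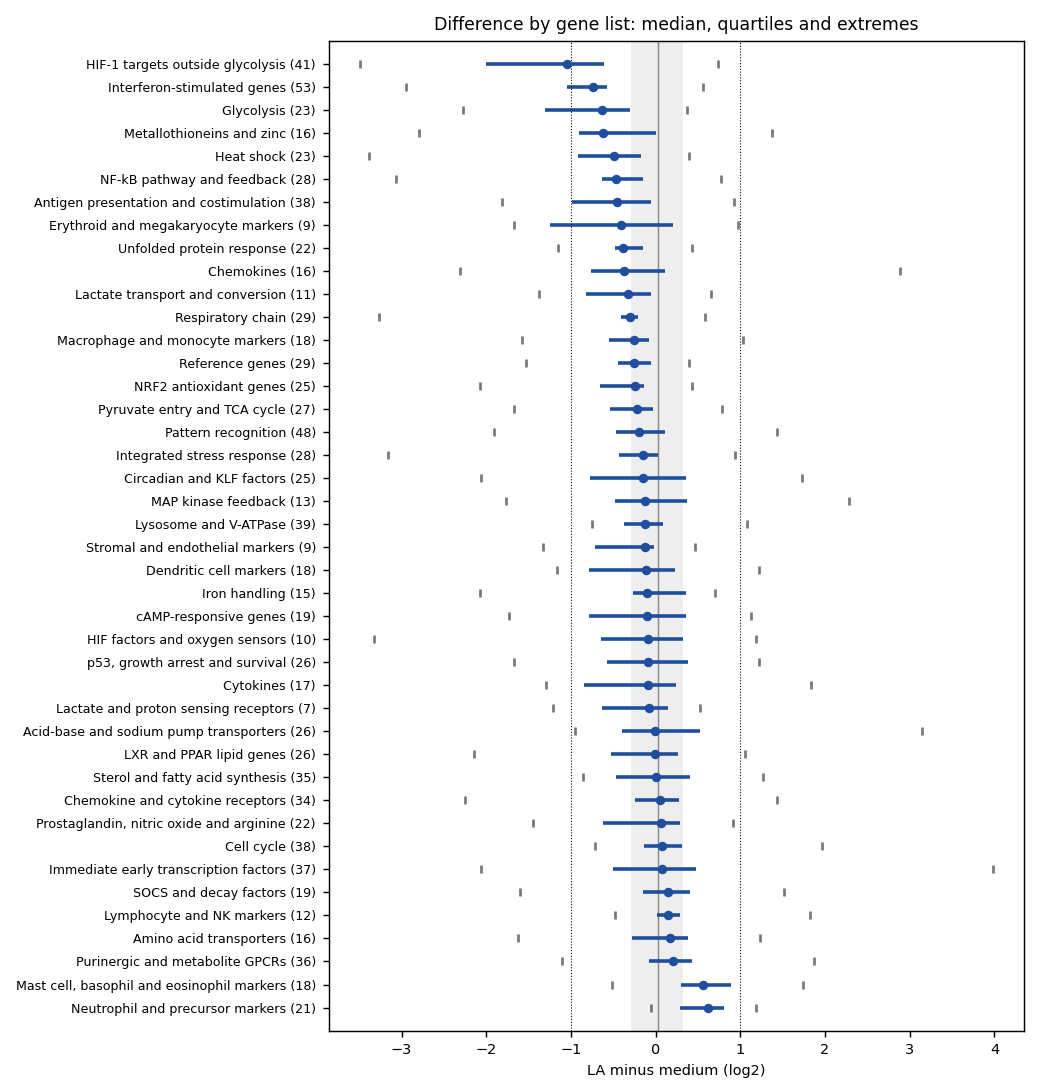
LA minus medium (log2, horizontal axis) for each gene list, with the number of measured members in parentheses: the point is the median, the bar spans the quartiles and the ticks mark the lowest and highest member. The grey band spans the quartiles of all measured genes. The medians run from -1.05 for the HIF-1 targets to 0.61 for the neutrophil and precursor markers.

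The labelled cell type was checked against its markers. Of 20 dendritic cell markers 18 were measured, among them Itgax (CD11c, 1.33 in medium and 0.54 with LA), H2-Ab1 (6.52 and 5.64), Cd74 and Zbtb46 (-1.02 and -1.96), and Xcr1 and Itgae were not above background. Of the 18 measured, 9 lay below 0 and 9 above it, with Dpp4 the highest (1.22). Their median difference was -0.12, and 0.01 with normexp. The summed linear level of all 20, which weighs bright members most, was 0.86 times that of medium. Macrophage and monocyte markers were present as well, as were those of granulocytes. The macrophage and monocyte sum with LA was 0.79 times that of medium, with Cx3cr1 and C1qa (-1.15) lower and Mertk (1.03) higher.

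Neutrophil and precursor markers were higher on the LA array, with 20 of 21 above 0 and a median of 0.61. S100a8 was at 5.79 in medium and 6.65 with LA (0.86), Camp at 3.29 and 4.18 (0.88) and Cebpe at 0.30 and 1.20 (0.90), whereas Csf3r differed by -0.05. Cxcr2 was the only member at least 2-fold higher; the count was 0 with normexp, 4 with quantile normalization and 5 in the authors' deposited values. The summed level of the list was 1.3 times that of medium. The markers of mast cells, basophils and eosinophils gave a median of 0.56, with Epx, eosinophil peroxidase, at 1.26 and 3.0 (1.74), Tpsb2 at 1.25 and Prg2 at 1.18, and a sum 1.77 times that of medium. Of the 9 measured erythroid and megakaryocyte markers the platelet genes Pf4, Ppbp and Gp1ba (-1.25) were lower and 3 lay above 0, with a median of -0.41, and the sum was 0.4 times that of medium. In bulk RNA, fewer cells of a type and less RNA per cell cannot be told apart. The part of these markers in the other differences was not tested.

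The second pair, LPS with LA against LPS, shares no array with the first. There 1567 of 13629 measured genes were at least 2-fold higher with LA (11.5%) and 1698 lower (12.5%). Of the 484 genes lower with LA alone, 428 were measured in that pair and 265 (61.9%) were at least 2-fold lower there, with 5 higher and a median of -1.37. Of the 454 genes higher with LA alone, 333 were measured and 132 (39.6%) were at least 2-fold higher, with 16 lower and a median of 0.69.

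The lists differed in how the 2 pairs compared. The HIF-1 targets gave 21 lower and 3 higher of 39 measured in the second pair and a median of -1.12, against 21 lower, 0 higher and -1.05 without LPS. Egln3 (-3.03 against -3.33), Bnip3 (-2.70 against -2.69) and Ero1a (-2.55 against -2.37) were nearly equal in both, while Ankrd37 (-1.3 against -3.32) and Selenbp1 (-0.46 against -1.88) differed less beside LPS. The interferon-stimulated genes gave 52 lower of 53 and a median of -3.26, against -0.74 without LPS. Rsad2 (-6.58 against -2.95) and Ifit2 (-7.37 against -2.70) show the gap. NF-kB genes had medians of -2.07 and -0.47. Whether any of these differences of differences exceeds the spread between cultures was not tested, since each rests on 4 single arrays.

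**Figure D5:**
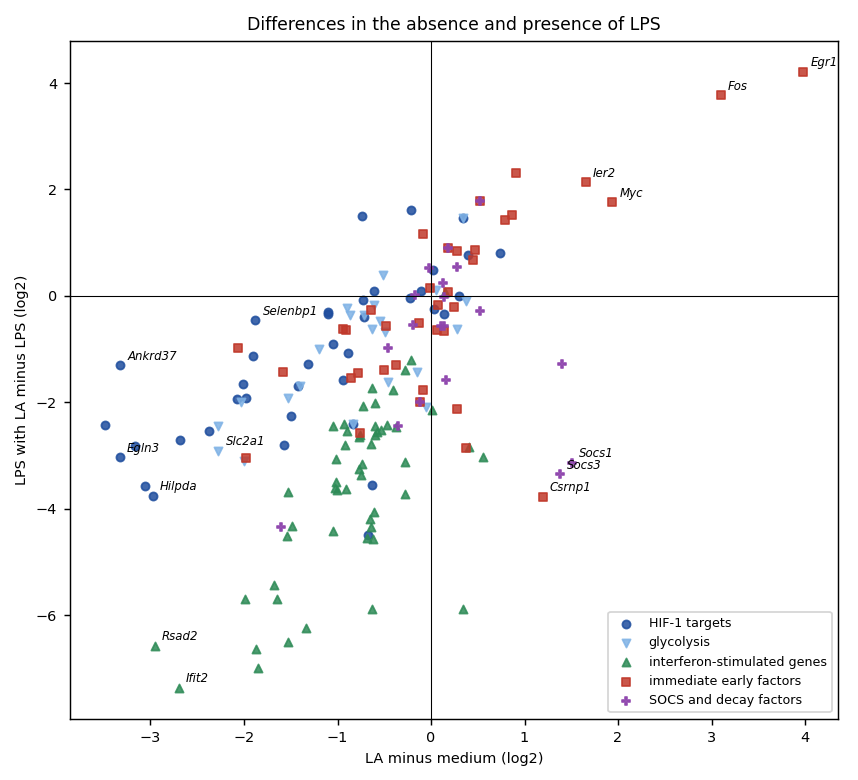
LPS with LA minus LPS (log2, vertical axis) against LA minus medium (log2, horizontal axis) for members of 5 lists measured on all 4 arrays. Most HIF-1 targets and Egr1, Fos, Ier2 and Myc have like differences in both pairs, the interferon-stimulated genes lie far lower on the vertical axis, and Socs1, Socs3 and Csrnp1 are above 0 on one axis and below 0 on the other.

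Genes well above background on 1 array only were compared by a bound, in which the dim array's level was replaced by the lowest one that passed the background test there, if that was higher. By it 284 of the 1206 genes above background with LA only were at least 2-fold higher with LA. Of the 584 above background in medium only, 255 were at least 2-fold lower. The largest upwards were Olfr655, an olfactory receptor, at least 16.1-fold, and Tifab, at least 15.9-fold, followed by P2ry12, Gcnt4, Wfikkn1, Chodl, Bend5 and Adam1a. The largest downwards were Pls1, the actin bundler plastin, at least 31.9-fold, Prl6a1, at least 22.2-fold, and Fgf4, at least 16.2-fold, with Apcdd1, Dcaf12l1, Epb42, Olfr1469 and Ntn5 after them. Of the 8 upwards 5 stood at least 2-fold above the other 3 arrays on the LA array alone, and all 8 downwards did so on the medium array. Chodl and Adam1a were above background on both arrays that received LA.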

How the data were processed

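RNA of 4 cultures was measured on 4 single-colour Agilent arrays, 1 per group, on 1 slide. Per the labels' protocols, a High Pure kit gave the RNA, and Low Input Quick Amp labelling gave Cy3 targets. Spot values are the deposited linear intensity after background subtraction, made by Feature Extraction 12.0.3.1 per the file headers (11.5.1.1 in the submitters' processing notes). A second deposited table, of intensities that the authors scaled by 1 factor per array (found by division), served as an alternative and gave a value for 13370 of the 14561 measured genes.

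There were 62976 spots per array; 59305 were no controls, and 0 were saturated. Outlier spots (154 for medium, 134 for LA) were left out, levels were log2 of the signal minus the array's 75th percentile, and spots of a probe were averaged. Of 56605 probes 33767 matched 1 RefSeq symbol (GRCm38.p6) by transcript identifier and 22838 matched none. A gene took its brightest probe over the 4 arrays. The headers name the mm9 build, and no coordinate was carried between builds.

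Genes were counted from a 2-fold difference, with no test, and precision is limited by having 1 array per group. The members and the 42 lists were chosen with earlier results of these data known. Named genes were detected members of the HIF, glycolysis, lactate, acid-base and immediate early lists, singly or by the ends of their range, up to 4 each way of the other lists, the 25 largest differences each way among genes that kept their direction over probes and 2-fold under 3 settings, and the 8 largest bounds each way; those named beside them (reference points such as Tlr4 or Actb, and the small RNAs) were chosen after their values were seen. The alternatives were normexp (limma 3.58.1 in R 4.3.3, offset 50, on the median spot signal), quantile normalization, 2 other scalings, no filter on dim probes, the mean of all probes, and the deposited table. Python 3.11.15 with pandas 2.3.3 did the rest, and the steps were tested on simulated data. Some members of the lists are not reported here.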

Additional observations from a re-analysis of the deposited data

Results flagged for a closer look

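Of 947 listed or named genes measured on all 4 arrays, 8 were at least 2-fold apart with LA in opposite directions without and with LPS. The difference between the pairs was not tested, since each pair is 2 single arrays. Of the 8, 7 were higher with LA alone: Ccl2 (2.88 without and -1.38 with LPS), Endod1 (2.31 and -1.24), Socs1 (1.51 and -3.14), Cish (1.40 and -1.29), Socs3 (1.37 and -3.35), Dpp4 (1.22 and -1.36) and Csrnp1 (1.19 and -3.78). The exception was the zinc importer Slc39a10, lower with LA alone and higher with LA beside LPS (-1.72 and 1.28). Socs1, Socs3 and Cish are inhibitors of cytokine receptor signalling. A second probe of Endod1 differed by only 0.13 without LPS.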

How the results depend on the processing

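With normexp, which adds an offset to every spot, 73 genes were at least 2-fold higher with LA and 164 lower, against 454 and 484. Without the filter on dim probes there were 1861 and 1423, and in the authors' deposited values, whose scaling shifts all differences by 0.15, 568 and 298. Under the other settings the higher count lay between 381 and 554 and the lower between 397 and 576. The HIF-1 target count (17 to 23) and the immediate early count (4 to 7) stayed within 1.5 times under all 7 settings. Of 42 list medians, 3 moved by more than the spread between probes (0.239) with the mean of all probes and 0 under the other settings; of 50 named genes 38 did with normexp and 16 with the mean of all probes. None of these 50 differences changed sign. That was partly fixed by their choice, which required the same direction over measured probes and 2-fold under normexp, quantile normalization and median scaling. Only 41 of them had a deposited value. Small differences given elsewhere, such as those of Actb or Cited2, can change sign with the scaling. List medians near 0, such as those of the acid-base, cytokine, sterol and lysosome lists, changed sign between settings and are given no direction. No paired analysis was possible because each group has 1 array. Dim genes are the least certain: the SD between spots was 0.409 in medium and 0.487 with LA below background, against 0.051 and 0.05 above it.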
